A study of Mus musculus with 20 samples.

Results

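The comparison described here is that of the hippocampus of mice with a glutamine that mimics acetylation at a lysine of TDP-43 on both alleles (TDP-43 KQ/KQ) with the hippocampus of TDP-43 wt mice. It rests on 9 of the 20 libraries of the study, 5 TDP-43 KQ/KQ (females F1, F2 and F3, males M1 and M2) and 4 TDP-43 wt (females F1, F2 and F3, male M1). The genes were those not at 0 in every library, 20145 of the 24528 in the table. Of these, 17863 were tested, after genes tied in all 3 libraries of 1 region, sex and litter were left out. Genes were ranked by the difference of the group means and by whether the groups were separated, that is, whether every TDP-43 KQ/KQ library lay above, or every one below, all TDP-43 wt libraries. Genes that followed Ttr, a marker of the choroid plexus, or Lum, a marker of meningeal fibroblasts, were set apart by their correlation with them over the libraries. The study sequenced ribosome-depleted total RNA from pulverized hippocampus and neocortex. All mice were 18 months old, and the knock-in was made with CRISPR-Cas9 in C57BL/6J zygotes and kept as heterozygotes. There were several founders, and the founder behind these mice is not given in the sources used here. The substitution is in every cell of the mouse and under the gene's own promoter, and no transgene or treatment is named for either genotype. In bulk tissue, fewer cells of a type and less RNA per cell cannot be told apart.

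TDP-43 is an RNA-binding protein of the nucleus that takes part in splicing, in the stability of transcripts and in the control of its own transcript, and it accumulates outside the nucleus in amyotrophic lateral sclerosis and frontotemporal dementia. Lysine 145 lies in the first RNA recognition motif, and glutamine at that place mimics an acetylated lysine that binds RNA less well. The hippocampus holds the granule neurons of the dentate gyrus and the pyramidal neurons of fields CA1, CA2 and CA3, with interneurons, glia and vessels. It borders on the ventricle, so that the choroid plexus, which secretes cerebrospinal fluid and makes transthyretin, and the meninges, whose fibroblasts make collagens and lumican, can come along in a dissection.

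The edited stretch is shown because all differences below are between mice that have it and mice that do not. The 30 bases cover codons 140 to 149 of Tardbp, on the minus strand of chromosome 4 in exon 4 of transcript Tardbp-202 (chr4:148620688-148620717, GRCm38), and capitals mark the bases at which the donor of the knock-in differs from the reference.
Reference: aaaactggtcactcGAaAggGttTggcttt
Donor: aaaactggtcactcTCaGggAttCggcttt
The donor differed at 5 bases in 4 codons. Codon 145 went from AAA to CAG (K145Q), and the changes in codons 144, 146 and 147 left the residue as it was. The donor gained 1 HinfI site (GANTC) that the reference lacks, by which the mice were genotyped. The guide was gtaaaactggtcactcgaaa, whose bases after the first match chr4:148620700-148620718 on the same strand, next to the PAM GGG at chr4:148620697-148620699.

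All values are on a scale like log2, from which the authors had removed sex and litter, and each gene was set to 0 at its average over the 6 TDP-43 KQ/KQ libraries of the neocortex. They show differences between libraries and neither the level of a gene nor the depth of sequencing, which is unknown here. Per-library values below are in the order F1, F2, F3, M1 for TDP-43 wt and F1, F2, F3, M1, M2 for TDP-43 KQ/KQ. A difference is TDP-43 KQ/KQ minus wt ± its standard error from limma, fitted on all 20 libraries with the 4 groups of region and genotype and with sex and litter shared by the regions. Genes with a Benjamini-Hochberg adjusted p under 0.05 over the 17863 genes are called, and "rose" and "fell" are used of these alone. Which mice gave both a hippocampus and a neocortex library is not labelled, but females agree between the regions in number, genotype and litter. The hippocampus males, all of litter 5, have neocortex males of the same genotype and litter, though not all of the same number. They may thus be shared too. The fit takes all libraries as independent, and the mouse effect used below joins females alone. Of 41 markers of the granule neurons and of the CA1, CA2 and CA3 fields, 21 were higher in every hippocampus library than in every neocortex library (8 of 14, 6 of 10, 5 of 8 and 2 of 9). Markers of the dentate gyrus, CA1 and CA2 were thus higher in part, and those of CA3 in 2 genes. The share of all genes tested that is higher in every hippocampus library was not worked out, so these counts describe the markers alone.

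A pair of the hippocampus libraries stood apart. TDP-43 KQ/KQ F1 had the highest content of choroid plexus genes, with a mean of 3.25 over 18 genes against -0.090 to 2.04 in the other 8 libraries. TDP-43 wt F2 was the highest of the 9 in the means of the astrocyte, homeostatic microglia and ribosomal protein lists (0.45, 0.37 and 0.36) and the lowest in those of the endothelial and pericyte lists (-0.20 and -0.19). List medians that leaving out 1 of these moved by over 1.5 times are given both ways, other than those close to that of all genes. Litter 6 holds wt F1 and F2 and KQ/KQ F1, litter 5 holds wt M1 and KQ/KQ F3, M1 and M2, and wt F3 and KQ/KQ F2 are alone in litters 4 and 1.

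Tardbp, the edited gene, matched the genotype labels in all 9 libraries. Its values were -0.62, -0.93, -0.71 and -1.03 in TDP-43 wt and -0.16, 0.038, 0.025, 0.0011 and 0.16 in TDP-43 KQ/KQ. The lowest TDP-43 KQ/KQ library thus lay above the highest TDP-43 wt library. Tardbp rose by 0.83 ± 0.095, or 1.78-fold (adjusted p = 0.00163), the largest rise of any called gene, and this call held without each of the 20 libraries in turn. Of these omissions, here and below, that of neocortex wt M1 could not change the fit, as no other library shares its litter. Those of hippocampus and neocortex KQ/KQ F2, which share a litter with no other library, give the same fit as each other. An exact permutation of the 9 libraries gave p = 0.00794 (two-sided), the smallest that 4 against 5 allow. It shuffled values from which sex and litter had been removed and took no account of litter. It therefore describes the separation of the groups and adds nothing to the call.

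Ttr, the transthyretin gene, marks the choroid plexus and varied more than any other named gene. Its values were -0.22, 1.86, 2.40 and 3.94 in TDP-43 wt and 6.61, -0.36, 3.38, 4.29 and 4.24 in TDP-43 KQ/KQ. Both genotypes held libraries near the bottom of this range (wt F1 and KQ/KQ F2), and the groups overlapped. The difference was 1.64 ± 1.73 (adjusted p = 0.694). Lum, the gene of the matrix proteoglycan lumican, was at 0.19, 0.22, 0.33 and 0.31 in TDP-43 wt and 1.06, 0.60, 0.68, 0.73 and 0.81 in TDP-43 KQ/KQ. Its groups were separated, with the lowest TDP-43 KQ/KQ library (F2) above the highest TDP-43 wt library (F3), and it rose by 0.51 ± 0.098 (adjusted p = 0.0364). That call ended without any 1 of 11 libraries, hippocampus wt F1, wt F2, wt F3, KQ/KQ F1, wt M1, KQ/KQ M1 and KQ/KQ M2 and neocortex wt F1, wt F2, wt F3 and KQ/KQ M2, where the adjusted p lay between 0.0527 and 0.227. Over the 9 libraries, deviations of Ttr and Lum from their genotype means had r = 0.853. As Lum itself differed between the genotypes, a correction for Lum also takes up part of the genotype.

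All 18 genes of choroid plexus epithelium had a positive difference, with a median of 1.04 against -0.0010 over all genes tested, and 0 were called or separated. The median was 0.32 without TDP-43 KQ/KQ F1 and 1.70 without TDP-43 wt M1. Within litter 6 (1 against 2 females) it was 3.08 and within the males of litter 5 (2 against 1) 0.28. Kcnj13, a potassium channel of that epithelium, was at -0.18, -0.057, 0.46 and 1.66 in TDP-43 wt and 3.63, 0.29, 1.45, 2.34 and 2.33 in TDP-43 KQ/KQ, a difference of 1.54 ± 0.72 (adjusted p = 0.333). Its groups overlapped, with KQ/KQ F1 highest and KQ/KQ F2 below wt F3 and wt M1. The prolactin receptor gene Prlr (1.45 ± 0.78), the homeobox gene Otx2 (0.84 ± 0.36) and the growth factor gene Igf2 (0.81 ± 0.35) were not called or separated either (adjusted p = 0.403, 0.297 and 0.302). Ttr, Kcnj13 and Prlr had the 3 largest positive differences of all genes tested. The 9 ependymal genes, which build motile cilia at the ventricle wall, all had a positive difference (median 0.18, 0.028 without TDP-43 KQ/KQ F1), and 0 were called. Among them were the cilia genes Cfap126 (0.29 ± 0.14) and Rsph1 (0.20 ± 0.12) and the secreted Mia (0.21 ± 0.14), with adjusted p of 0.342 to 0.505.

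The median of the meningeal and perivascular fibroblast genes depended less on single libraries. All 18 had a positive difference, with a median of 0.38 that stayed between 0.27 and 0.48 without each hippocampus library, and 1 (Lum) was called and separated. The mean over the list was 0.24, -0.11, -0.0094 and -0.17 in TDP-43 wt and 0.50, 0.34, 0.13, 0.37 and 0.65 in TDP-43 KQ/KQ. The groups overlapped in wt F1, which lay above KQ/KQ F3. The collagen gene Col1a2 was at -0.19, -0.69, -0.38 and -0.74 in TDP-43 wt and 0.45, 0.21, -0.37, 0.36 and 0.36 in TDP-43 KQ/KQ, a difference of 0.70 ± 0.19 (adjusted p = 0.138). Serping1, the inhibitor of complement C1, differed by 0.41 ± 0.13 (adjusted p = 0.188). Only 2 of the 18 followed Ttr or Lum, against 18 of 18 choroid plexus genes, and the median r with Lum was 0.12 in the meningeal list and 0.89 in the choroid plexus list. Col1a2 and Serping1 did not follow (r with Lum 0.35 and -0.36). Following Lum thus went with the choroid plexus list and did not set most meningeal genes apart. A gene that follows neither Ttr nor Lum may still vary with meningeal content, which was not tested.

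**Figure D1:**
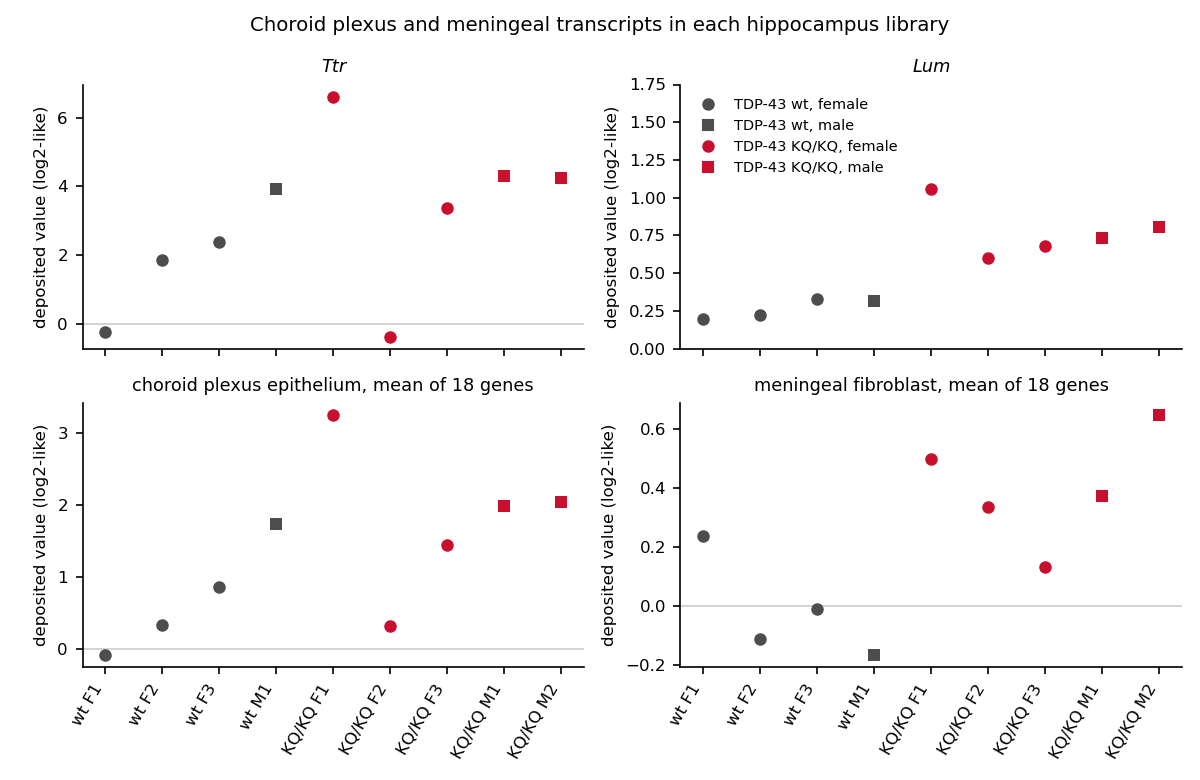
Mean of the choroid plexus genes, mean of the meningeal and perivascular fibroblast genes, Ttr and Lum in each of the 9 hippocampus libraries (log2-like scale, 0 at the average of TDP-43 KQ/KQ neocortex); each point is a library, with colours for genotype, circles for females and squares for males. TDP-43 KQ/KQ F1 is highest in the choroid plexus genes, and Lum is separated between the genotypes while Ttr is not.

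A gene was said to follow when its deviations from the genotype means over the 9 libraries had r of at least 0.8 with those of Ttr or Lum, which describes these libraries and carries no test. Of the genes tested, 497 followed Ttr, 580 Lum and 731 either (4.09%), and 664 of the 731 had a positive difference. Of the separated genes, 95 higher ones and 1 lower one followed. Those higher with the largest differences were Wfikkn2, a secreted protein that binds growth factors of the myostatin group, Timp3, an inhibitor of metalloproteinases, Cd59a, which protects cells from complement, and Fzd4, a receptor for Wnt ligands and norrin. Wfikkn2 was at -0.30, -0.20, -0.17 and 0.025 in TDP-43 wt and 1.51, 0.40, 0.54, 0.99 and 0.56 in TDP-43 KQ/KQ, a difference of 0.96 ± 0.22 (adjusted p = 0.0771). Timp3 was at -0.11, -0.35, -0.14 and -0.11 and 0.74, 0.24, 0.26, 0.25 and 0.54. It rose by 0.58 ± 0.11 (adjusted p = 0.0392), and its call ended without any 1 of 13 libraries, hippocampus wt F1, wt F2, wt F3, KQ/KQ F1, wt M1 and KQ/KQ M2 and neocortex wt F1, wt F3, KQ/KQ F1, KQ/KQ F3, wt M2, KQ/KQ M2 and KQ/KQ M3, with adjusted p between 0.0503 and 0.227. In both genes KQ/KQ F1 was the highest library. Cd59a (0.58 ± 0.13) and Fzd4 (0.57 ± 0.13) were not called (adjusted p = 0.0664 and 0.0673). The lower one was Hcls1, a relative of cortactin in blood cells and microglia (-0.12 ± 0.056, adjusted p = 0.322). Of the 69 called genes 4 followed (Lum itself, Timp3, Pdk4 and Ceacam2), against 731 of the 17863 genes tested (4.09%), and all 4 rose. Ceacam2 is outside the naming rule and was named after its values were seen. Another 3 called genes, which fell, had r at or under -0.8 (Hpca, Kcnab2 and Nkx6-2), as had 247 of the 17863 genes tested.

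**Figure D2:**
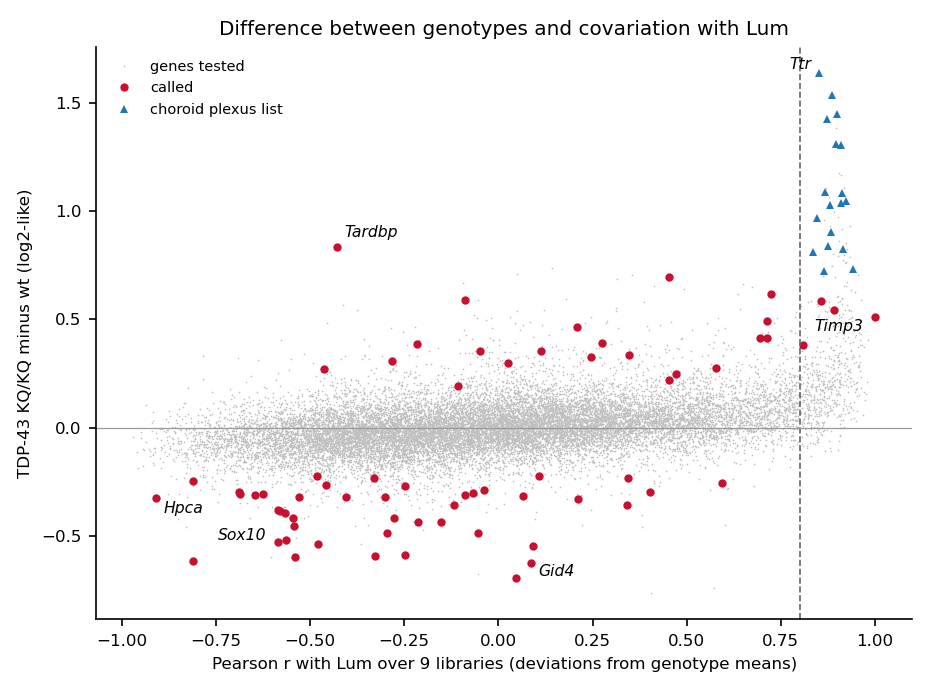
Difference of TDP-43 KQ/KQ from TDP-43 wt in the hippocampus (vertical, log2-like) against the r of a gene with Lum over the 9 libraries, within genotype (horizontal), for all 17863 genes tested, with called genes as red circles, choroid plexus genes as blue triangles and the threshold for following as a broken line. Genes at high r lie mostly above 0, and called genes lie over the whole range of r.

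In all, limma called 69 genes, of which 25 rose (0.14% of those tested) and 44 fell (0.246%), and 2650 had an unadjusted p under 0.05. The median rise was 0.38 (0.19 to 0.83) and the median fall -0.34 (-0.22 to -0.69), and 10 changed by 1.5-fold or more. All 69 were separated. Separated groups as such were common, with 748 genes higher (4.19%) and 973 lower (5.45%) in TDP-43 KQ/KQ, so that separation alone says little of a gene. With each female taken as 1 mouse in both regions by a random effect, 51 were called (19 rose, 32 fell), all among the 69. The named genes among the others were Lum, Timp3, Gstm2, Nostrin, F3, Creb5, Erbb3, Hpca and Kcnab2, with adjusted p of 0.0543 to 0.0696. The calls lean on the neocortex libraries for the estimate of the spread. With the hippocampus fitted alone (18310 genes, 3 residual degrees of freedom), 0% were called and 2224 genes had an unadjusted p under 0.05 by limma, with a lowest adjusted p of 0.152. Without TDP-43 KQ/KQ F1 8 genes were called (1 rose, 7 fell), and without TDP-43 wt M1 19 were (2 and 17). KQ/KQ F1 is rich in choroid plexus genes and is also the only TDP-43 KQ/KQ hippocampus library of litter 6. Likewise, wt M1 is the only TDP-43 wt one of litter 5. Without KQ/KQ F1 some differences hardly moved, as Plat (0.47 to 0.47) and Pmaip1 (0.38 to 0.38). Others shrank, as Gstm2 (0.41 to 0.33) and Nkx6-2 (-0.61 to -0.50). What lowers the count was not tested. Without TDP-43 wt F2 there were 38 (11 and 27). The count also went down by over 1.5 times without hippocampus wt F1 (43), wt F3 (33), KQ/KQ M1 (45) or KQ/KQ M2 (28) and without neocortex wt F1 (40), wt F3 (33), wt M2 (39) or KQ/KQ M2 (39), and it went up without hippocampus KQ/KQ F3 (114) or neocortex KQ/KQ M1 (137). The 8 genes that stayed called without every single library were Tardbp, Sema5b, Gid4, Spop, Fbxo32, Npy, Zfp180 and Synrg. The last 2, a zinc finger gene and a partner of the clathrin adaptor AP-1, fall outside the naming rule and were named after their values were seen.

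**Figure D3:**
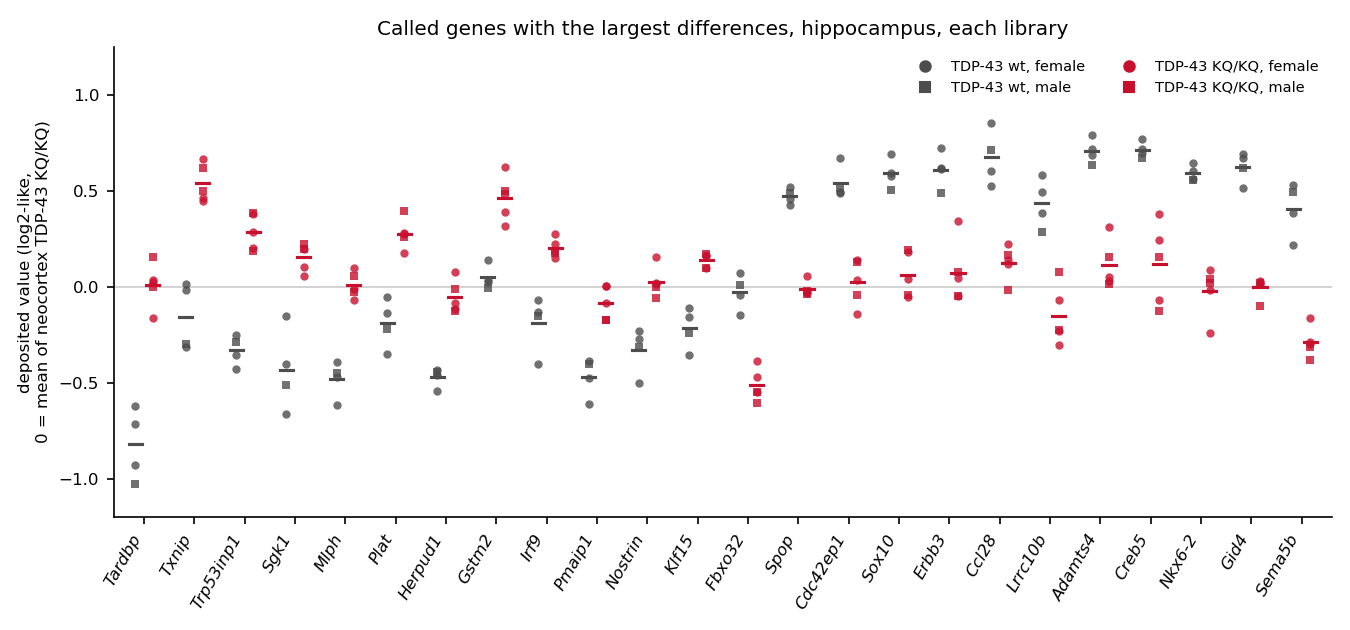
The 12 largest rises (left) and falls (right) among called genes that follow neither Ttr nor Lum, as deposited value in each of the 9 hippocampus libraries (vertical, log2-like); circles are females, squares males, colours genotypes and dashes group means. The genes were chosen as called and separated, so all TDP-43 KQ/KQ libraries lie on 1 side of all TDP-43 wt libraries by that choice.

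Several of the genes that rose respond to glucocorticoids, to FOXO factors or to cell stress. Txnip, an arrestin that binds thioredoxin and lowers glucose uptake, was at 0.012, -0.32, -0.018 and -0.30 in TDP-43 wt and 0.67, 0.45, 0.46, 0.50 and 0.62 in TDP-43 KQ/KQ. It rose by 0.69 ± 0.10 (adjusted p = 0.00851), and wt F2 was the lowest of its libraries. Sgk1, a kinase induced by glucocorticoids, was at -0.15, -0.66, -0.40 and -0.51 and 0.10, 0.057, 0.20, 0.20 and 0.23. It rose by 0.59 ± 0.12 (adjusted p = 0.0494), just inside the threshold. Klf15, a transcription factor of the glucocorticoid response, was at -0.11, -0.35, -0.16 and -0.24 and 0.16, 0.17, 0.097, 0.10 and 0.17 and rose by 0.36 ± 0.067 (adjusted p = 0.0363). Pdk4, which keeps pyruvate from entering the citric acid cycle, was at -0.32, -0.40, -0.16 and -0.23 and 0.47, 0.15, 0.24, 0.17 and 0.31. It rose by 0.54 ± 0.11 (adjusted p = 0.0391) and followed Lum (r = 0.89). Of 26 listed glucocorticoid and FOXO genes, 21 had a positive difference and 11 were separated and higher, against 4.19% of all genes tested. Txnip, Sgk1, Klf15 and Pdk4 were called, while 0.14% of all genes tested rose. The median of the list was 0.19 (0.16 to 0.24 without each hippocampus library). Fbxo32, a target of FOXO factors in muscle that is described below, went the other way.

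Trp53inp1, a stress protein induced by p53 that acts in autophagy, was at -0.35, -0.43, -0.25 and -0.29 in TDP-43 wt and 0.38, 0.20, 0.28, 0.19 and 0.39 in TDP-43 KQ/KQ. It rose by 0.62 ± 0.097 (adjusted p = 0.0132). Pmaip1, which encodes the cell-death protein Noxa, rose by 0.38 ± 0.074 (adjusted p = 0.0364), and Sesn1, a p53 target that restrains mTORC1, was at 0.19 ± 0.049 (adjusted p = 0.113). Of 32 p53 targets and apoptosis regulators, 20 had a positive difference and 2 were called, with a median of 0.047 (0.028 without KQ/KQ M1). Herpud1, a membrane protein of the endoplasmic reticulum that takes part in protein degradation there, was at -0.43, -0.54, -0.46 and -0.44 and 0.075, -0.11, -0.084, -0.013 and -0.13. It rose by 0.42 ± 0.063 (adjusted p = 0.00983). Of the 25 genes of endoplasmic reticulum stress, 19 had a positive difference and 6 were separated and higher, against 4.19% of all genes tested. Herpud1 alone was called (median 0.095, 0.063 without KQ/KQ M2). The chaperone Hspa5 (0.39 ± 0.12) and the disulfide isomerase partner Creld2 (0.33 ± 0.10) were not (adjusted p = 0.174 and 0.178). Of 22 heat shock proteins and chaperones 13 had a positive difference and 0 were called (median 0.027). The co-chaperones Bag3 and Hspb8 were at 0.13 ± 0.039 and 0.32 ± 0.098, and Dnajc5, a chaperone of synaptic vesicles that is also a TDP-43 splicing target, at -0.12 ± 0.044 (adjusted p = 0.164, 0.174 and 0.25).

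The other rises were in genes of varied function. Plat, the tissue plasminogen activator, was at -0.053, -0.35, -0.14 and -0.22 in TDP-43 wt and 0.28, 0.18, 0.28, 0.26 and 0.39 in TDP-43 KQ/KQ and rose by 0.47 ± 0.076 (adjusted p = 0.0165). F3, tissue factor, the start of the coagulation cascade and made by astrocytes in the brain, rose by 0.27 ± 0.055 (adjusted p = 0.0445). Its call was the least steady of those named, as it ended without any 1 of 17 libraries, hippocampus wt F1, wt F2, wt F3, KQ/KQ F1, KQ/KQ F2, wt M1, KQ/KQ M1 and KQ/KQ M2 and neocortex wt F1, wt F2, wt F3, KQ/KQ F1, KQ/KQ F2, KQ/KQ F3, wt M2, KQ/KQ M2 and KQ/KQ M3, with adjusted p between 0.0534 and 0.221. Of 38 genes of coagulation, fibrinolysis and complement, 25 had a positive difference and these 2 were called (median 0.064, -0.0040 to 0.16 without each hippocampus library). Mlph, which links Rab27a vesicles to myosin, rose by 0.49 ± 0.082 (adjusted p = 0.022), and Irf9, the DNA-binding part of the interferon-activated factor ISGF3, by 0.39 ± 0.067 (adjusted p = 0.0232). Gstm2, a glutathione transferase with close paralogs among which reads can be split, rose by 0.41 ± 0.076 (adjusted p = 0.0363), and Nostrin, which binds endothelial nitric oxide synthase, by 0.36 ± 0.070 (adjusted p = 0.0392). Among the 12 genes with the largest rises that followed neither Ttr nor Lum (Tardbp, Txnip, Trp53inp1, Sgk1, Mlph, Plat, Herpud1, Gstm2, Irf9, Pmaip1, Nostrin and Klf15), 11 calls ended without KQ/KQ F1 and 11 without wt M1, with adjusted p up to 0.255 and 0.196. Further, 7 ended without KQ/KQ M2 (up to 0.103), 5 without wt F2 (0.13), 5 without wt F3 (0.0897), 4 without KQ/KQ M1 (0.0772), 3 without KQ/KQ F3 (0.0615) and 1 without wt F1 (0.0519). Without neocortex libraries, up to 5 ended (wt F3 and wt M2, adjusted p up to 0.0866). Pdk4, which followed Lum, lost its call without any 1 of 12 libraries, hippocampus wt F1, wt F2, wt F3, KQ/KQ F1, wt M1, KQ/KQ M1 and KQ/KQ M2 and neocortex wt F1, wt F3, KQ/KQ F1, wt M2 and KQ/KQ M2 (adjusted p 0.0528 to 0.335).

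A guidance gene and 3 genes of ubiquitin ligases were among the falls whose calls did not rest on any single library. Sema5b, a membrane-bound semaphorin that guides axons, was at 0.38, 0.22, 0.53 and 0.49 in TDP-43 wt and -0.30, -0.29, -0.16, -0.31 and -0.38 in TDP-43 KQ/KQ. It fell by 0.69 ± 0.080 (adjusted p = 0.00163), the largest fall of a called gene. Gid4, the subunit by which the GID/CTLH ubiquitin ligase recognizes substrates, was at 0.52, 0.67, 0.69 and 0.62 and 0.020, 0.017, 0.031, 0.020 and -0.10. It fell by 0.63 ± 0.056 and had the lowest adjusted p of all genes (0.000254). Its TDP-43 KQ/KQ libraries lay close to each other, with M2 the lowest. Spop, a substrate adaptor of cullin 3, was at 0.43, 0.46, 0.52 and 0.49 and -0.033, -0.028, 0.054, -0.023 and -0.035 and fell by 0.49 ± 0.048 (adjusted p = 0.000369). Fbxo32, the F-box protein atrogin-1 of a cullin 1 ligase, was at -0.15, 0.074, -0.045 and 0.0097 and -0.55, -0.47, -0.39, -0.55 and -0.61. It fell by 0.49 ± 0.062 (adjusted p = 0.00338). The 4 genes kept their calls without each of the 20 libraries.

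Among the other members of these families 1 was called. Of 11 GID/CTLH genes, 6 had a positive and 5 a negative difference (median 0.0025), and Gid4 alone was called. The scaffold gene Ranbp9 was at 0.19 ± 0.053 and Ypel5 at -0.10 ± 0.063 (adjusted p = 0.139 and 0.466). Of 23 cullin 3 and SOCS-box adaptors, 16 had a negative difference (median -0.039, -0.015 without wt F2 and -0.063 without KQ/KQ F3). Beside Spop, Spsb1 was called, a SOCS-box adaptor on the same chromosome as Tardbp (chr4:149896283-149955006 and chr4:148612382-148627084). Called genes on chromosome 4 also include Trp53inp1, Hpca and Kcnab2, and whether position near the edit matters was not tested. Spsb1 was at -0.28, -0.44, -0.29 and -0.34 in TDP-43 wt and 0.0019, -0.090, 0.031, 0.026 and -0.034 in TDP-43 KQ/KQ and rose by 0.33 ± 0.062 (adjusted p = 0.0363). That call ended without any 1 of 12 libraries, hippocampus wt F1, wt F2, wt F3, KQ/KQ F1, KQ/KQ F3, wt M1, KQ/KQ M1 and KQ/KQ M2 and neocortex wt F1, wt F3, KQ/KQ F1 and wt M2 (adjusted p 0.0503 to 0.227). Kctd10, another cullin 3 adaptor, was at 0.14 ± 0.046 (adjusted p = 0.199). Of 60 semaphorins, plexins and ephrins with their receptors, 27 had a positive and 33 a negative difference (median -0.012), and only Sema5b was called. The ephrin receptors Epha7 and Ephb3 were at -0.22 ± 0.053 and -0.25 ± 0.074 (adjusted p = 0.0871 and 0.156).

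The falls included regulators of the oligodendrocyte lineage, whose cells make myelin. Of 12 transcription factors of this lineage, 10 had a negative difference and 6 were separated and lower, against 5.45% of all genes tested. In this list 3 were called, while 0.246% of all genes tested fell, and the median was -0.20. Sox10, which drives myelin genes, was at 0.59, 0.69, 0.58 and 0.51 in TDP-43 wt and -0.051, 0.042, 0.18, 0.19 and -0.044 in TDP-43 KQ/KQ and fell by 0.53 ± 0.085 (adjusted p = 0.0155). Nkx6-2 was at 0.60, 0.65, 0.56 and 0.56 and -0.24, -0.018, 0.088, 0.018 and 0.039 and fell by 0.61 ± 0.11 (adjusted p = 0.0232). It went down as Lum went up over the libraries (r = -0.81), and KQ/KQ F1 was the lowest library. Nkx2-2, which acts as the cells mature, fell by 0.42 ± 0.058 (adjusted p = 0.00576). Also called were Erbb3, the receptor of neuregulin on Schwann cells and oligodendrocytes (-0.54 ± 0.10, adjusted p = 0.0391), and Adamts4, a protease that cleaves aggrecan and is made by oligodendrocytes. Adamts4 was at 0.69, 0.72, 0.79 and 0.64 and 0.030, 0.049, 0.31, 0.16 and 0.015 and fell by 0.60 ± 0.090 (adjusted p = 0.00983). The calls of Sox10, Nkx2-2 and Adamts4 ended only without hippocampus KQ/KQ F1 (adjusted p = 0.161, 0.0819 and 0.107).

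No listed structural gene of myelin was called, while nearly all had a negative difference. The count covers the listed genes alone, and 45 of the 69 called genes were in no list. Of 25 genes of mature oligodendrocytes and myelin, 24 had a negative difference and 9 were separated and lower, against 5.45% of all genes tested. The median was -0.29 (-0.35 to -0.24 without each hippocampus library), and 0 were called. Gjc3, a connexin of these cells, was at 0.66, 0.60, 0.68 and 0.53 in TDP-43 wt and 0.076, 0.29, 0.49, 0.13 and 0.27 in TDP-43 KQ/KQ, a difference of -0.37 ± 0.089 (adjusted p = 0.0913). Mag, an adhesion protein of myelin, was at -0.34 ± 0.087 (adjusted p = 0.106). The exception was Enpp2, a secreted lysophospholipase that the choroid plexus also makes, with a difference of 1.38. Of 13 precursor genes, 10 had a negative difference (median -0.045, -0.017 without wt F2 and -0.078 without wt M1) and 0 were called or separated, with the matrix gene Tnr at -0.15 ± 0.083, Bmp4 at 0.18 ± 0.11 and the calcium channel subunit Cacng4 at -0.054 ± 0.050 (adjusted p = 0.426, 0.434 and 0.652).

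The other large falls among genes that followed neither Ttr nor Lum were in Creb5, a transcription factor of the CREB family (-0.60 ± 0.11, adjusted p = 0.0363), Lrrc10b (-0.59 ± 0.10, adjusted p = 0.0254), the chemokine gene Ccl28 (-0.55 ± 0.10, adjusted p = 0.0363) and Cdc42ep1, an effector of the GTPase Cdc42 (-0.52 ± 0.087, adjusted p = 0.0222). Of the 12 largest falls (these 4 with Sema5b, Gid4, Spop, Fbxo32, Nkx6-2, Sox10, Adamts4 and Erbb3), 8 calls ended without KQ/KQ F1 (adjusted p up to 0.33) and 5 without wt M1 (up to 0.17). The count was also 5 without wt F1 (0.0888), wt F2 (0.0914) or KQ/KQ M2 (0.0847), 4 without wt F3 (0.0862), 3 without KQ/KQ M1 (0.0718) and 1 without KQ/KQ F2 (0.0527). Without neocortex libraries up to 3 ended (wt M2 and KQ/KQ M2, adjusted p up to 0.0591). The largest negative differences of genes that were not called were those of Rmrp and Rpph1, the RNA parts of RNase MRP and RNase P (-0.77 ± 0.35 and -0.74 ± 0.87, adjusted p = 0.333 and 0.731), and both overlapped between the genotypes.

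Called genes with roles in neurons included a pair of interneuron peptides, a pair of calcium signalling proteins and a potassium channel subunit. Npy, the gene of neuropeptide Y, was at -0.48, -0.41, -0.55 and -0.47 in TDP-43 wt and -0.93, -0.79, -0.90, -0.90 and -0.84 in TDP-43 KQ/KQ. It fell by 0.39 ± 0.051 (adjusted p = 0.00338) and kept its call without each of the 20 libraries. Sst, somatostatin, was at 0.23, 0.48, 0.26 and 0.26 and -0.19, -0.16, -0.18, -0.068 and -0.040, with wt F2 well above the other wt libraries. It fell by 0.44 ± 0.063 (adjusted p = 0.00773). The calcium-binding Pvalb, which marks fast-spiking interneurons, was at -0.31 ± 0.10 and not called (adjusted p = 0.198). Of 18 genes of GABA synthesis and interneurons, 14 had a negative difference and 4 were separated and lower, against 5.45% of all genes tested. Npy and Sst were called, while 0.246% of all genes tested fell. The median was -0.081 (-0.045 without KQ/KQ F1 and -0.041 without wt F2). Camk2b, a subunit of the calcium/calmodulin-dependent kinase of synapses, was at 0.47, 0.41, 0.36 and 0.40 and 0.019, 0.097, 0.14, 0.088 and 0.16. It fell by 0.31 ± 0.043 (adjusted p = 0.00698). Hpca, the calcium sensor hippocalcin of pyramidal neurons, was at 1.18, 1.16, 1.14 and 1.08 and 0.61, 0.86, 0.87, 0.88 and 0.83, with KQ/KQ F1 far below the rest. It fell by 0.33 ± 0.063 (adjusted p = 0.0382) and went down as Lum went up (r = -0.91). Camk2a was at -0.22 ± 0.062 (adjusted p = 0.144). Of the 21 genes of this list 19 had a negative difference and 6 were separated and lower, against the same 5.45%. Camk2b and Hpca were called, and the median was -0.11 (-0.055 without KQ/KQ F1 and -0.059 without wt F2). Kcnab2, a subunit of potassium channels of axons, fell by 0.25 ± 0.048 (adjusted p = 0.0391). The calls of Sst and Camk2b ended only without KQ/KQ F1 (adjusted p = 0.0876 and 0.0827). Those of Hpca and Kcnab2 ended without any 1 of 12 and 14 libraries, for Hpca hippocampus wt F1, wt F2, wt F3, KQ/KQ F1, wt M1, KQ/KQ M1 and KQ/KQ M2 and neocortex wt F1, wt F3, wt M2, KQ/KQ M2 and KQ/KQ M3 (adjusted p 0.0501 to 0.161) and for Kcnab2 hippocampus wt F1, wt F2, wt F3, KQ/KQ F1, KQ/KQ F3, wt M1, KQ/KQ M1 and KQ/KQ M2 and neocortex wt F1, wt F2, wt F3, KQ/KQ F1, wt M2 and KQ/KQ M2 (adjusted p 0.0503 to 0.335).

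The lists of synaptic and axonal genes had small negative medians and no further call. Of 38 potassium channel genes 27 had a negative difference (median -0.070), and Kcna6 and Kcnv1 were at -0.18 ± 0.044 and -0.37 ± 0.11 (adjusted p = 0.0969 and 0.173). Of 36 genes of synaptic vesicles and release 33 had a negative difference and 10 were separated and lower, against 5.45% of all genes tested. Here 0 were called (median -0.12, -0.066 without KQ/KQ F1). In that list Bin1, which bends membranes, was at -0.19 ± 0.043, the Rab3 effector Rph3a at -0.26 ± 0.062 and the vesicle protein Svop at -0.18 ± 0.053 (adjusted p = 0.0771, 0.0887 and 0.151). The values of Rph3a were -0.46, -0.38, -0.30 and -0.35 in TDP-43 wt and -0.76, -0.55, -0.60, -0.57 and -0.66 in TDP-43 KQ/KQ, and KQ/KQ F1 was again the lowest. Of 30 genes of glutamate receptors and their auxiliary subunits 22 had a negative difference and 0 were called (median -0.088), with the NMDA receptor subunit Grin2c at -0.30 ± 0.067 and the AMPA receptor partners Cnih2 and Cacng2 at -0.29 ± 0.066 and -0.22 ± 0.081 (adjusted p = 0.0693, 0.0721 and 0.243). Of 26 postsynaptic scaffold genes 24 had a negative difference and 0 were called (median -0.083). The scaffold Homer3 was at -0.45 ± 0.094, Nsmf, which signals from synapse to nucleus, at -0.27 ± 0.060, and Cyfip2, of the WAVE complex, at -0.13 ± 0.041 (adjusted p = 0.0569, 0.0693 and 0.188). Of 34 genes of tubulins, tau and motors 31 had a negative difference and 0 were called (median -0.081), with the tau gene Mapt at -0.16 ± 0.040, the tau kinase Ttbk1 at -0.24 ± 0.060 and the tubulin Tubb4a at -0.21 ± 0.056 (adjusted p = 0.0913, 0.105 and 0.135). Of 23 immediate early genes, which neuronal activity induces, 17 had a negative difference and 0 were called (median -0.082, -0.049 without wt M1). The neurotrophin gene Bdnf was at -0.46 ± 0.14, Jund at -0.25 ± 0.069 and Ier2 at -0.21 ± 0.066 (adjusted p = 0.174, 0.14 and 0.184).

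Of 14 granule neuron markers of the dentate gyrus 11 had a negative difference (median -0.14, -0.086 without KQ/KQ F2 and -0.24 without KQ/KQ F3). Separated and lower were 3, against 5.45% of all genes tested. C1ql2, a synaptic protein of mossy fibres, was at 2.81, 2.72, 2.78 and 2.74 in TDP-43 wt and 2.32, 1.79, 2.40, 2.48 and 2.52 in TDP-43 KQ/KQ, a difference of -0.46 ± 0.17 (adjusted p = 0.243), and KQ/KQ F2 was far below the rest. The cadherin Cdh9 and the lactase gene Lct, both of granule neurons, were at -0.31 ± 0.067 and -0.45 ± 0.11 (adjusted p = 0.0665 and 0.099). Of 9 CA3 markers 8 had a negative difference (median -0.15, -0.081 without KQ/KQ F1), among them the adhesion gene Nectin3 (-0.36 ± 0.11), the copine Cpne4 (-0.25 ± 0.11) and the Bcl-2 relative Bok (-0.60 ± 0.19), with adjusted p of 0.16, 0.302 and 0.188. Of 10 CA1 markers 5 had a positive difference (median 0.012), and the receptor Gpr161, the secreted Nov and the transcription factor Pou3f1 were at 0.34 ± 0.096, 0.29 ± 0.12 and -0.16 ± 0.084 (adjusted p = 0.142, 0.27 and 0.404). Of 8 CA2 markers 5 had a negative difference (median -0.049, -0.010 without wt F2, -0.080 without wt F3, 0.0039 without KQ/KQ F2 and -0.028 without wt M1), with the growth factor Fgf2 at -0.084 ± 0.038, the G protein regulator Rgs14 at -0.17 ± 0.071 and the calcium-binding Necab2 at 0.079 ± 0.069 (adjusted p = 0.323, 0.285 and 0.629). No marker of the 4 fields was called. Of 13 genes of immature neurons 7 had a positive difference and 0 were called (median 0.0042), and the transcription factors Sox11, Neurod1 and Neurod4 were at 0.14 ± 0.087, -0.19 ± 0.094 and -0.15 ± 0.10 (adjusted p = 0.463, 0.374 and 0.524).

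Of the microglial genes listed, 1 was called. This count covers the listed genes alone, as 45 of the 69 called genes were in no list and were not sorted by cell type. Of 24 genes of homeostatic microglia 22 had a negative difference and 13 were separated and lower, against 5.45% of all genes tested. Their median was -0.19, and -0.13 without wt F2, the library that was highest in them. The list mean was 0.089, 0.37, 0.13 and 0.11 in TDP-43 wt and -0.040, -0.060, 0.022, 0.068 and -0.0047 in TDP-43 KQ/KQ. Irf8, a transcription factor of microglia, was at 0.33, 0.30, 0.22 and 0.18 in TDP-43 wt and -0.17, -0.038, 0.011, -0.041 and 0.051 in TDP-43 KQ/KQ and fell by 0.30 ± 0.058 (adjusted p = 0.0393), a call that ended without any 1 of 16 libraries, hippocampus wt F1, wt F2, wt F3, KQ/KQ F1, KQ/KQ F2, wt M1, KQ/KQ M1 and KQ/KQ M2 and neocortex wt F1, wt F2, wt F3, KQ/KQ F1, KQ/KQ F2, KQ/KQ F3, wt M2 and KQ/KQ M2 (adjusted p 0.0503 to 0.335). The phosphatase Ptpn6 and the complement gene C1qb were at -0.28 ± 0.062 and -0.28 ± 0.065 (adjusted p = 0.0693 and 0.0771). Of 21 genes of disease-associated microglia 14 had a negative difference, 7 were separated and lower, against the same 5.45%, and 0 were called. The median was -0.083, -0.052 without wt F2 and -0.13 without KQ/KQ F1. The integrin Itgax was at -0.29 ± 0.070, the lectin receptor Clec7a at -0.22 ± 0.062 and the chemokine Ccl6 at -0.28 ± 0.083 (adjusted p = 0.0842, 0.149 and 0.156). Of 22 astrocyte genes 18 had a negative difference (median -0.14, -0.10 without wt F2), and the only call was the rise of F3. The transcription factor Sox9 was at -0.39 ± 0.12 and the adhesion protein Hepacam at -0.19 ± 0.060 (adjusted p = 0.179 and 0.19).

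The vascular lists had positive medians, which were lower without wt F2. Of 21 endothelial genes 17 had a positive difference and 0 were called or separated (median 0.12, 0.066 without wt F2, 0.066 without KQ/KQ F1, 0.075 without KQ/KQ F3 and 0.20 without wt F1). The glucose transporter Slc2a1 was at 0.45 ± 0.13, the thyroid hormone transporter Slco1c1, which choroid plexus also has, at 0.59 ± 0.22, and the lipid transfer protein Pltp at 0.37 ± 0.14 (adjusted p = 0.164, 0.238 and 0.249). Of 15 genes of pericytes and smooth muscle 13 had a positive difference and 0 were called or separated (median 0.18, 0.11 without wt F2 or wt M1). The smooth muscle genes Tagln and Acta2 were at 0.48 ± 0.16 and 0.47 ± 0.16 and the receptor Notch3 at 0.32 ± 0.15 (adjusted p = 0.191, 0.204 and 0.327). Of 5 red cell genes 3 had a positive difference (median 0.011). The globin genes Hbb-bt, Hbb-bs and Hba-a1 were at -0.20 ± 0.20, -0.19 ± 0.35 and 0.071 ± 0.26 (adjusted p = 0.674, 0.841 and 0.926), and their near-identical copies share reads.

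Of 20 known splicing targets of TDP-43 13 had a negative difference, 5 were separated and lower, against 5.45% of all genes tested, and 0 were called (median -0.065, -0.032 without wt F3, -0.036 without KQ/KQ M1 and -0.034 without KQ/KQ M2). Here Smarca4, the motor of a chromatin remodeller, was at -0.14 ± 0.051 (adjusted p = 0.235), and these gene-level values carry nothing about splicing. Of 22 long genes that loss of TDP-43 lowers 16 had a negative difference, 1 was separated and lower and 0 were called (median -0.035, -0.055 to -0.012 without each hippocampus library). The secretion gene Cadps was at -0.10 ± 0.050 and the ephrin Efna5 at 0.11 ± 0.050 (adjusted p = 0.368 and 0.34). Of 28 genes of amyotrophic lateral sclerosis and frontotemporal dementia 19 had a negative difference (median -0.051, -0.031 without wt F2 and -0.022 without KQ/KQ F1), and Tardbp alone was called, with Pfn1, an actin-binding protein, at -0.21 ± 0.079 (adjusted p = 0.25). Of 56 hnRNPs and splicing regulators 26 had a positive and 30 a negative difference and 0 were called (median -0.011). The splicing regulators of neurons Celf4 and Rbfox3 were at -0.22 ± 0.047 and -0.15 ± 0.055 and Hnrnpa0 at -0.20 ± 0.073 (adjusted p = 0.0569, 0.241 and 0.243).

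The remaining lists are of genes that most cells use. Over all genes tested, 4.19% were separated and higher and 5.45% separated and lower. All 79 cytosolic ribosomal protein genes had a negative difference with a median of -0.17, but 0 were separated or called, and the median was -0.071 without wt F2, whose list mean was the highest. The list mean was -0.073, 0.36, 0.018 and 0.14 in TDP-43 wt and -0.12, -0.16, -0.048, 0.16 and -0.10 in TDP-43 KQ/KQ, so that wt F1 lay with TDP-43 KQ/KQ libraries and KQ/KQ M1 with TDP-43 wt. Rps10, Rps9 and Rplp1 were at -0.36 ± 0.14, -0.25 ± 0.097 and -0.33 ± 0.13 (adjusted p = 0.247, 0.26 and 0.274), and such genes share reads with pseudogenes. Of 71 genes of the respiratory chain 67 had a negative difference, 2 were separated and lower and 0 were called (median -0.10, -0.044 without wt F2 and -0.059 without KQ/KQ F1). The complex I subunits Ndufb2 and Ndufb3 were at -0.36 ± 0.10 and -0.22 ± 0.11 and the ATP synthase subunit Atp5d at -0.19 ± 0.071 (adjusted p = 0.157, 0.353 and 0.25). Of 19 clock genes 15 had a positive difference, 3 were separated and higher and 0 were called (median 0.090, 0.036 without KQ/KQ F2 and 0.057 without wt M1), with Ciart, Per1 and Bhlhe40, repressors within the clock, at 0.18 ± 0.055, 0.16 ± 0.075 and 0.12 ± 0.095 (adjusted p = 0.168, 0.346 and 0.594). Of the 69 called genes 24 were in at least 1 of the 40 lists and 45 in none.

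**Figure D4:**
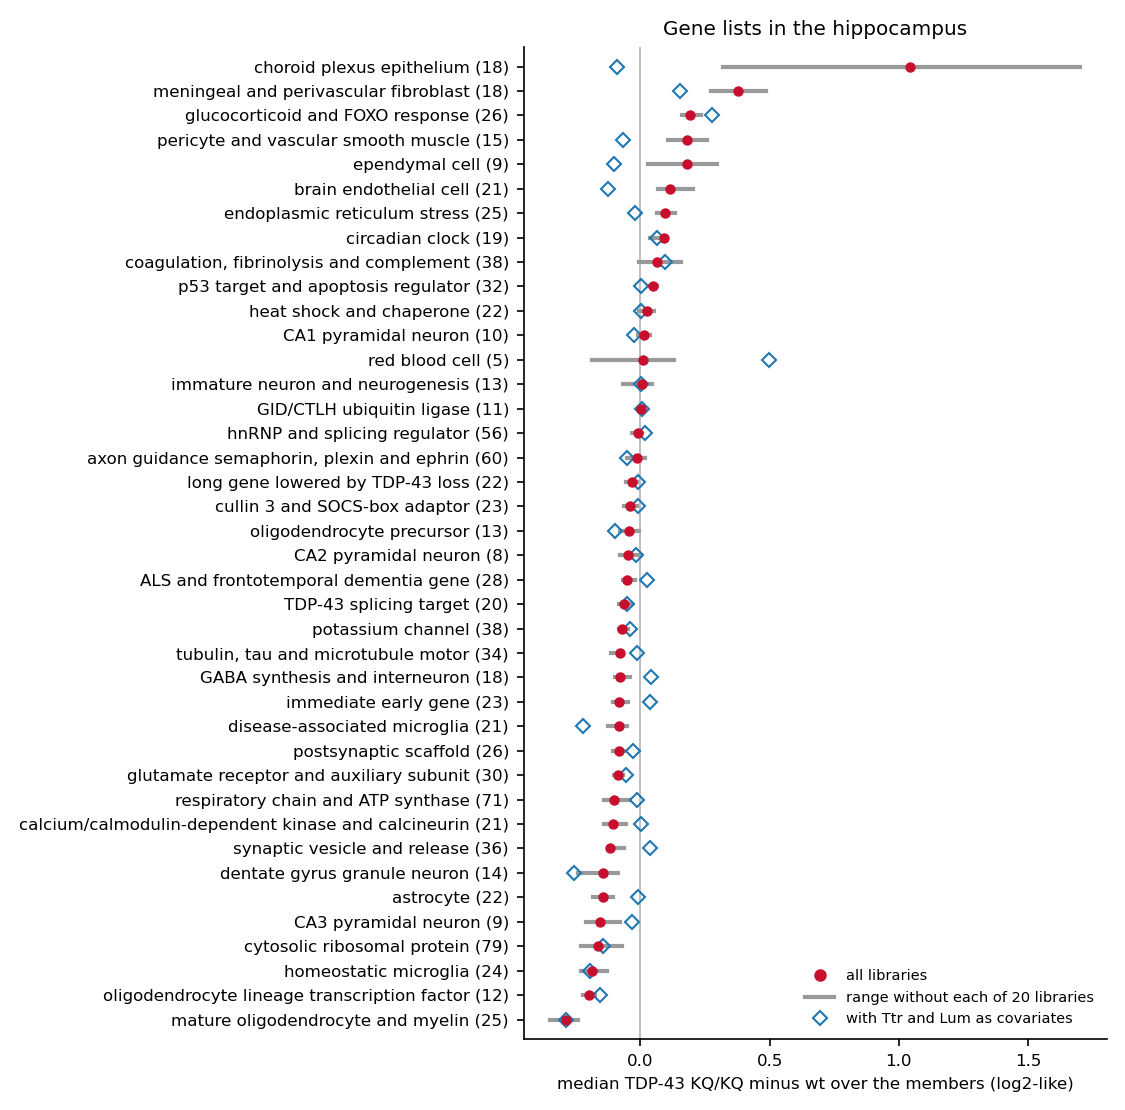
Median difference of TDP-43 KQ/KQ from TDP-43 wt (log2-like) of the lists, with all libraries (filled circles), as the range without each of the 20 libraries (bars), and with Ttr and Lum as covariates (open diamonds); numbers tested are in brackets. The median of the choroid plexus list moves from 1.04 to 0.32 without TDP-43 KQ/KQ F1 and to -0.092 with the covariates, and that of the myelin list stays below 0.

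With Ttr and Lum as covariates 0 genes were called (421 at an unadjusted p under 0.05 by limma), against 44 with Ttr alone, of which 38 were among the 69, and 0 with Lum alone (814 unadjusted). The covariates left the signs of the called genes in place, while the differences were smaller at the median and less certain. Of the 68 called genes other than Lum, 24 rises and 44 falls kept their sign. The median rise became 0.29 and the median fall -0.26, while the median standard error went from 0.062 to 0.13 and was larger in all 68. Gid4 went from -0.63 to -0.70 ± 0.12, Spop from -0.49 to -0.51 ± 0.11, Sema5b from -0.69 to -0.70 ± 0.18 and Tardbp from 0.83 to 0.98 ± 0.19. In these 4 genes the difference stayed about as large or grew. Others shrank, as Timp3 (0.58 to 0.037 ± 0.16), Gstm2 (0.41 to 0.14 ± 0.12), Creb5 (-0.60 to -0.23 ± 0.21), Nkx6-2 (-0.61 to -0.26 ± 0.20) and Hpca (-0.33 to -0.13 ± 0.11). So did Sox10 (-0.53 to -0.26 ± 0.17), Erbb3 (-0.54 to -0.26 ± 0.21), Cdc42ep1 (-0.52 to -0.27 ± 0.18) and Herpud1 (0.42 to 0.22 ± 0.12). The median of the choroid plexus list went to -0.092, that of the meningeal list to 0.15, and that of the myelin list to -0.29. The medians of the interneuron and synaptic vesicle lists turned positive (0.041 and 0.038), and those of the ependymal, endothelial and pericyte lists negative (-0.10, -0.12 and -0.068). Since Lum separates the genotypes, these values do not tell how much of a difference goes with Lum and how much with genotype.

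**Figure D5:**
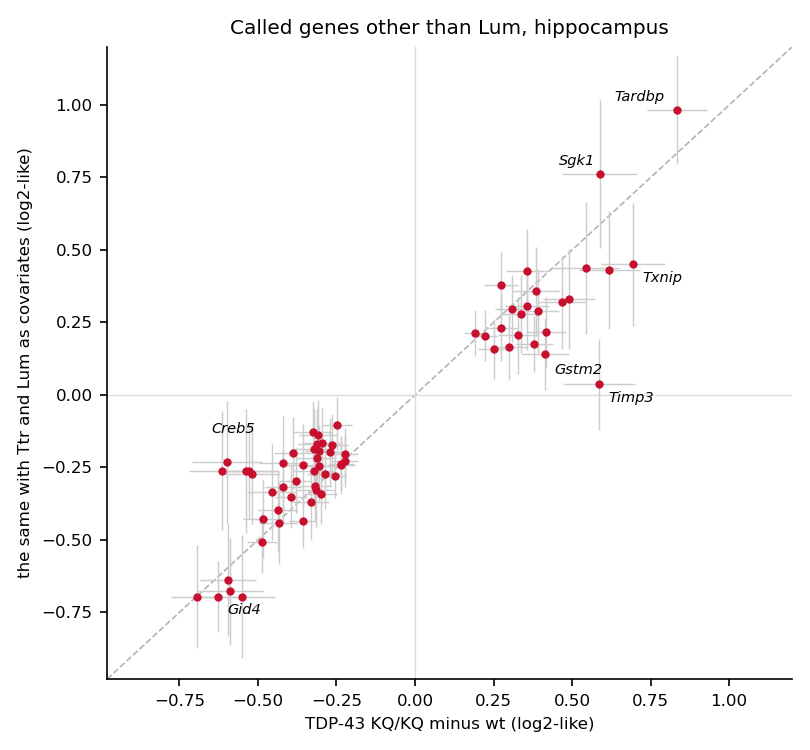
Difference of the 68 called genes other than Lum (horizontal) against the same difference with Ttr and Lum as covariates (vertical), both log2-like with standard errors as bars; the broken line is equality. Tardbp, Sgk1 and Gid4 lie on or beyond the line, and Timp3 is near 0 on the vertical axis.

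The genotype difference in the hippocampus was also set against that in the neocortex in the same fit. The difference between the regions passed for 0% of the 17863 genes, with 1041 at an unadjusted p under 0.05 by limma, and the lowest adjusted p among the 69 called genes was 0.718. A value that misses the threshold does not show that the regions act alike. Sema5b was -0.69 in the hippocampus and -0.71 ± 0.075 in the neocortex, and Gid4 -0.63 and -0.54 ± 0.053. These were of like size in the 2 regions. Camk2b was -0.31 and -0.052 ± 0.041, Hpca -0.33 and -0.077 ± 0.059, Gstm2 0.41 and 0.085 ± 0.071, and Timp3 0.58 and 0.15 ± 0.11. Here the hippocampus value was the larger, with differences between the regions of -0.25 ± 0.055, -0.25 ± 0.080, 0.33 ± 0.097 and 0.44 ± 0.15 that did not pass. The neocortex value was the larger in others, as Spsb1 (0.33 and 0.56 ± 0.058) and Zfp180 (-0.36 and -0.48 ± 0.040). All these genes were picked by their call in the hippocampus. In the neocortex all 25 rises had a positive and all 44 falls a negative difference, and 6 and 11 were called there. As the regions may share mice, this is no independent check. The choroid plexus list had a median of 0.086 in the neocortex and the meningeal list -0.011.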

How the data were processed

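Total RNA of 20 libraries, 9 of them from the hippocampus, was sequenced after ribosomal depletion. The authors used cutadapt for trimming, STAR 2.5.2b for alignment to mm10, Salmon for quantification and DESeq2 1.34.0 in R 4.1.0 for variance stabilization, and took out sex and litter with limma. The values they deposited are on a log2-like scale and were found centred on the neocortex TDP-43 KQ/KQ mean of each gene. No counts were used, so depth is unknown. limma 3.58.1 and statmod 1.5.0 in R 4.3.3 fitted all 20 libraries (11 residual degrees of freedom), with sex and litter as terms again since their removal had used degrees of freedom. Figures were drawn with Python 3.11.15 and matplotlib 3.10.9. The fit was tested on simulated data. Alternatives were the hippocampus alone, terms for each region, a mouse effect, other filters, robust estimation, centring, a replicate block, covariates, and each library left out. No 2 hippocampus libraries were identical.

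The comparison, its genes and the 40 lists were chosen with earlier results of these data known, and the lists were drawn up from textbook knowledge. Named were Tardbp, Ttr and Lum; the 12 largest rises and falls among called, separated genes that follow neither; up to 4 separated genes in each direction that follow; the 3 largest differences in each direction; and up to 3 genes per list, called ones first, then separated, then by p. Results of 3 genes that the rule would name are not reported here and were not replaced. Coordinates and sequence are those of GRCm38, and guide and donor letters those of the study.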

Additional observations from a re-analysis of the deposited data

Results flagged for a closer look

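In 15 of 268 groups of named genes, 1 library stood apart from the others of its genotype by Dixon's test at the 95% level, and chance alone gives about 1 in 20. TDP-43 wt F2 held 5 of the 15. In it Cdc42ep1 was at 0.67 against 0.49 to 0.52 in the other TDP-43 wt libraries, Sst at 0.48 against 0.23 to 0.26, Necab2 at 0.50 against 0.29 to 0.32, Hepacam at 0.37 against 0.18 to 0.21 and Timp3 at -0.35 against -0.14 to -0.11. Wt F2 was thus above the rest in 4 of these genes and below it in Timp3. TDP-43 wt F1 was high in Neurod1 (0.51 against 0.44 to 0.45) and low in Hspa5 (-0.41 against -0.25 to -0.22), and wt M1 was high in Jund (-0.068 against -0.20 to -0.19).

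Among TDP-43 KQ/KQ libraries, M1 stood apart in Fgf2 (0.055 against 0.00037 to 0.014), Ranbp9 (-0.22 against -0.073 to -0.026) and Rplp1 (0.24 against -0.25 to -0.11). F1, the library rich in choroid plexus genes, was low in Hpca (0.61 against 0.83 to 0.88), and F2 was low in C1ql2 (1.79 against 2.32 to 2.52). F3 was high in Spop (0.054 against -0.035 to -0.023) and M2 low in Gid4 (-0.10 against 0.017 to 0.031). In Spop and Gid4 the library that stood apart was still below every TDP-43 wt library.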

How the results depend on the processing

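Of the values described, the count of called genes was the one that moved most. It was 69 and went to 0 with the hippocampus alone, 0 with Ttr and Lum as covariates, 0 with Lum and 44 with Ttr as the covariate (the last 2 chosen after seeing the data), and it ranged from 8 to 137 without single libraries. With sex and litter fitted in each region it was 93, of which 34 were among the 69. It stayed within 1.5 times with female mice as a random effect (51), no filter (72), the stricter filter (70), robust estimation (68) and libraries centred on their medians (69, of which 67 shared). With a replicate block in place of sex and litter it was 941, with all 69 among them, and 1 gene differed between the regions against 0. The numbers do not pair the libraries, as same-numbered ones had r of -0.604 to -0.127 and 0 of 4 TDP-43 wt libraries correlated best with its namesake, so the block stands for nothing in the design. Separated genes went from 1721 to 1850 to 2875 without single libraries, as fewer libraries have to be set apart, and genes that follow Ttr or Lum from 731 to 318 with r of at least 0.9. The difference between the regions stayed at 0 genes under every other alternative run, the omissions included.

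Changes of sign were found in genes that were not called and in none of the named called genes. With Ttr and Lum as covariates the difference became Igf2 -0.015, Cfap126 -0.071, Rsph1 -0.11, Mia -0.12, Sox11 -0.038, Pvalb 0.024, Cyfip2 0.0034, Bmp4 -0.17, Cacng4 0.035, Slco1c1 -0.45, Pltp -0.19, Notch3 -0.20, Hbb-bt 0.12, Hbb-bs 0.50, Cadps 0.10, Rbfox3 0.017, Hnrnpa0 0.088 and Ndufb3 0.013. With Lum alone it became Ttr -5.13, Wfikkn2 -0.071, Kcnj13 -1.55, Prlr -1.64, Otx2 -0.71, Igf2 -0.53, Cfap126 -0.26, Rsph1 -0.31, Mia -0.36, Nov -0.073, Pou3f1 0.035, Cacng2 0.090, Bmp4 -0.12, Cacng4 0.020, Slco1c1 -0.50, Pltp -0.18, Cadps 0.079, Rbfox3 0.027 and Hnrnpa0 0.0041. Hba-a1 also changed sign with the hippocampus alone (-0.12), with the terms fitted in each region (-0.12), with Ttr alone (-0.021) and without any 1 of 4 libraries (-0.17 without neocortex KQ/KQ M1 to -0.0011 without hippocampus KQ/KQ M1), with 0.26 as the highest (without hippocampus KQ/KQ F1). Hbb-bs changed sign without hippocampus KQ/KQ F1 (0.090) and was -0.48 at the lowest (without neocortex KQ/KQ M1). The cause of these changes was not tested.

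The values hold neither level nor depth, so how precise a difference is rests on how far libraries of a group lie apart. Wt F3 and KQ/KQ F2 are alone in their litters. Lum was separated between the genotypes and Ttr was not, and the part of either in the called differences was not tested.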
